A study of Mus musculus with 24 samples.

Results

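Prrx1 sites that were listed in wound-healing fibroblasts and in neither of the other fibroblast types of the study were examined. Lists of Prrx1 summits, the 1-bp positions at which the ChIP-seq signal over its control was highest, came from WT mouse embryonic fibroblasts (MEF), cancer-associated fibroblasts of mammary tumours (MMTV-CAF) and wound-healing fibroblasts (Wound). Each summit was widened by 250 bp to either side and overlapping windows were merged over the 3 lists, which gave 13405 sites. A site was called wound-only when all of its summits came from the Wound list, and 3318 sites met this rule. They were 59% (95% interval 57.7–60.2) of the 5627 sites with a Wound summit. The members were thus chosen by their Prrx1 summit positions, and Prrx1 values below are given as a description.

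MEF were taken from embryos of embryonic day 10 to 13 and had a C57BL/6 background, the MMTV-CAF came from MMTV-PyMT mammary tumours of FVB/NJ mice, and the Wound fibroblasts were isolated from dorsal wounds of C57BL/6 mice 10 days after wounding. Cultures of every type were immortal lines that expressed E6 and E7 of a human papillomavirus. WT denotes the control, which carried the non-targeting guide SgNS where a guide was used, SG denotes deletion of Prrx1 with CRISPR/Cas9 and the guide SgPrrx1, and KI denotes MEF of the Prrx1 mutant strain 129S-Prrx1tm1Jfm/Mmmh, although their strain label also reads C57BL/6. Histone H3 acetylated at lysine 27 (H3K27ac) and H3 trimethylated at lysine 4 (H3K4me3) were listed in WT, KI and SG MEF and in WT and SG cells of the other types, which made 14 histone lists from 14 libraries. Prrx1 was listed in WT cells alone, and a Prrx1 list from KI or SG cells was not analysed here. Cell type and genotype cannot be told apart from the library, because each combination of cell type, genotype and antibody had 1 list. For MMTV-CAF the cell type also cannot be told apart from the FVB/NJ strain, while MEF and Wound cells were both labelled C57BL/6. The intervals printed are 95% Wilson intervals for shares and Newcombe intervals for differences, taken over sites. They cover counting error only, and no p-value was computed.

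Prrx1 is a paired-related homeobox transcription factor of mesenchymal cells, and its homeodomain is known to contact AT-rich words such as TAATTA. H3K27ac lies at active promoters and enhancers, and H3K4me3 lies mainly at promoters. In skin wounds, fibroblasts of the dermis lay down collagen-rich matrix and can take on a contractile, myofibroblastic state.

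Sequences around 10 wound-only summits are shown to illustrate a feature the rule did not use, the number and spacing of TAATTA words. They were picked after their values and words were seen and are not the strongest: stronger summits, most of them in repeated sequence and without the word, and others of like strength with and without it, are not printed. Each is read from the plus strand of mm9 (NCBIM37), reaches 50 bases to either side of the summit, and is printed with every TAATTA in capitals. The first 5 lie in introns or between genes and hold runs of TAATTA in which consecutive copies start 4 bases apart, so that neighbours overlap. The sixth lies upstream of Fbn1, the gene of the microfibril protein fibrillin-1, and holds none. The last 4 lie within 1 kb of a protein-coding start.
near Sprr2e, chr3:92158450-92158550: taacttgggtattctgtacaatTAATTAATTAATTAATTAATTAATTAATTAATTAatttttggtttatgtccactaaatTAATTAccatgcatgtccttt
Gzmk intron, chr13:113983893-113983993: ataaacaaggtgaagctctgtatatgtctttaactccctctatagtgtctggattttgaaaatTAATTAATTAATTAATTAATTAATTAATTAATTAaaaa
near AI593442, chr9:52476072-52476172: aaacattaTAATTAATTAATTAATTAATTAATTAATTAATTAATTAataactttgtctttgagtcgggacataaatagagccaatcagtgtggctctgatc
Csrp1 intron, chr1:137623132-137623232: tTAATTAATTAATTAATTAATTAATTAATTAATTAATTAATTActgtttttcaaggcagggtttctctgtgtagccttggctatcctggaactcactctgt
upstream of Col5a2, chr1:45584844-45584944: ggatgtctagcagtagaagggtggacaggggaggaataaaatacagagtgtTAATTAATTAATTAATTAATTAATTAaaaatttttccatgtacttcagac
upstream of Fbn1, chr2:125366465-125366565: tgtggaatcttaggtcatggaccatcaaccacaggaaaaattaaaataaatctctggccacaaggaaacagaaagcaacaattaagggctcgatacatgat
Ahcy promoter, chr2:154900581-154900681: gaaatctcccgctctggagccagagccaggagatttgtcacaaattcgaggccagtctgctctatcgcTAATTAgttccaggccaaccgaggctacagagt
Pop5 promoter, chr5:115685527-115685627: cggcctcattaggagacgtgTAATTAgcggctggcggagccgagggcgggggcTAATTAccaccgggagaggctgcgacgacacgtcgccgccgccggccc
Galnt10 promoter, chr11:57458700-57458800: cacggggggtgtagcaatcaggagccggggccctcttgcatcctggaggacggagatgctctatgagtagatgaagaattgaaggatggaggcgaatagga
Lrrc32 promoter, chr7:105641782-105641882: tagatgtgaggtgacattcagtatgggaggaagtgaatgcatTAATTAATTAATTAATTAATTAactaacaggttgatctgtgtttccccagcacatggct

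The site near Sprr2e, a gene of the cornified envelope of the epidermis, had a Prrx1 −log10 p of 29.4 and a run of 34 bases. The sites in Gzmk and near AI593442 both had a −log10 p of 25.3, with runs of 34 and 38 bases. The Csrp1 intron site reached 21.3 with a run of 42 bases. The site upstream of Col5a2, a fibrillar collagen gene, was the weakest of the 5 and had a run of 26 bases. None of these 5 sites had H3K27ac in both Wound lists. The site in Gzmk had an H3K27ac summit in SG Wound cells at a −log10 p of 7.27, and the site upstream of Col5a2 had one in WT Wound cells at 16.3. The site upstream of Fbn1 reached 26.7 without the word, and it had H3K27ac in WT MEF (10.2) and WT MMTV-CAF (31.6) but in neither Wound list. Among the promoter sites shown, Ahcy reached 22.6, Pop5 and Galnt10 12.7 each, and Lrrc32 11.5. Pop5 held 2 separate copies of the word and Lrrc32 a run of 22 bases.

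TAATTA was found within 100 bp of the summit at 1168 wound-only sites, or 35.2% (33.6–36.8). In windows of the same length 2 kb to either side of the same summits the share was 6.39%. Both strands were read, and the word is its own reverse complement. Distal sites, defined as those farther than 1 kb from a protein-coding start, held it in 43.2% (flanks 6.68%). Promoter sites held it in 11.9% (flanks 5.54%), and 1.88% of windows around all 45939 annotated protein-coding starts held it. The other Wound Prrx1 sites held it in 31.1% at promoter and 56.5% at distal positions. The word was thus more frequent at wound-only summits than in either background, and more frequent at distal than at promoter sites.

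A run of TAATTA, meaning at least 2 copies with starts 4 bases apart, was present at 434 wound-only sites (13.1%, 12–14.3) and in 0.151% of the flanking windows. Of 1715 pairs of adjacent copies at wound-only sites, 1347 (78.5%) had this step, and the longest run was 50 bases. Runs were present at 17.2% of distal and 0.943% of promoter sites. Runs of at least 22 bases occurred at 147 sites (4.43%).

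The share with the word differed between wound-only sites and the other sites of the Wound list. Of the 684 sites in the MEF and Wound lists 86.8% held TAATTA and 77.5% a run, and of the 533 sites in all 3 lists 49.2% and 27.2% did. The 1092 sites in the MMTV-CAF and Wound lists held the word in 32% and a run in 4.30%. Against all 2309 other Wound sites, wound-only sites held TAATTA less often (difference −17 points, −19.6 to −14.4) and runs less often (difference −18.2 points, −20.4 to −16.0). Against sites shared with MMTV-CAF alone they held runs more often (difference 8.78 points), while the interval for the word itself reached 0 (difference 3.24, −0.00785 to 6.40).

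**Figure D1:**
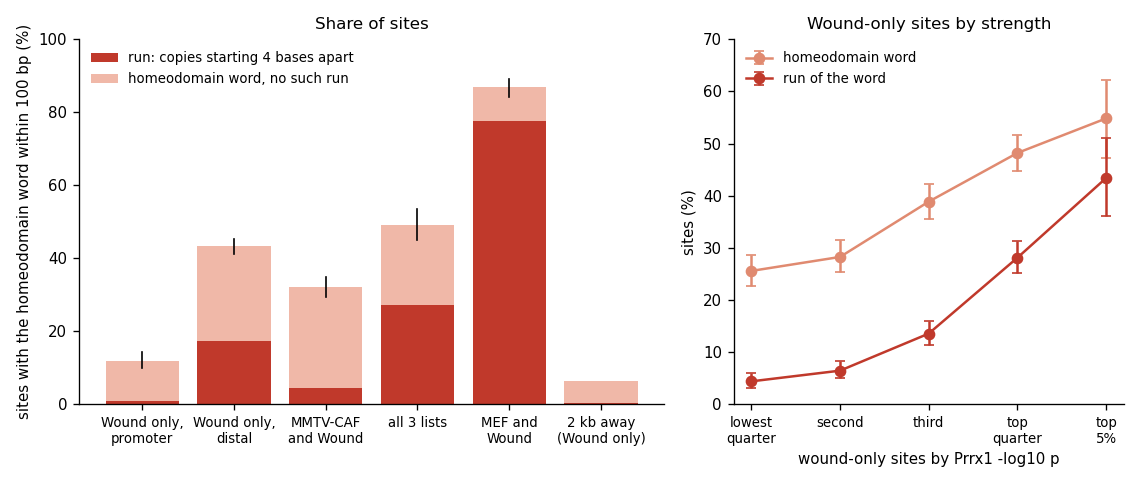
Share of Prrx1 sites with the homeodomain word TAATTA within 100 bp of the summit, by list membership (left, percent of sites; the dark part of a bar is the share with a run and the lines are 95% intervals for the word) and by quartile of Prrx1 −log10 p among wound-only sites (right, percent of sites, 95% intervals). Sites of the MEF and Wound lists stand highest at 86.8%, and among wound-only sites the share with a run goes from 4.34% in the lowest quartile to 28.1% in the top quartile.

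Wound-only sites were weaker than the other Prrx1 sites of the Wound list, on the −log10 p that the authors' peak caller gave. Their median was 5.41 (range 3.05–49.5), against 7.15 for sites shared with MMTV-CAF, 8.31 for sites shared with MEF and 10.4 for sites in all 3 lists. A −log10 p of at least 10 was reached by 150 wound-only sites (4.52%) and by 31.5% of the other Wound sites. Wound-only sites made up 80.3% (452 of 563) of the lowest 10% of Wound sites and 12.6% (71 of 563) of the top 10%. Of all wound-only sites, 978 (29.5%) lay below 5, the −log10 p of the cutoff stated for sharp peaks, as did 10.8% of the other Wound sites. The values took few levels: the 5 commonest were shared by 1925 of the 3318 sites (58.0%).

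**Figure D2:**
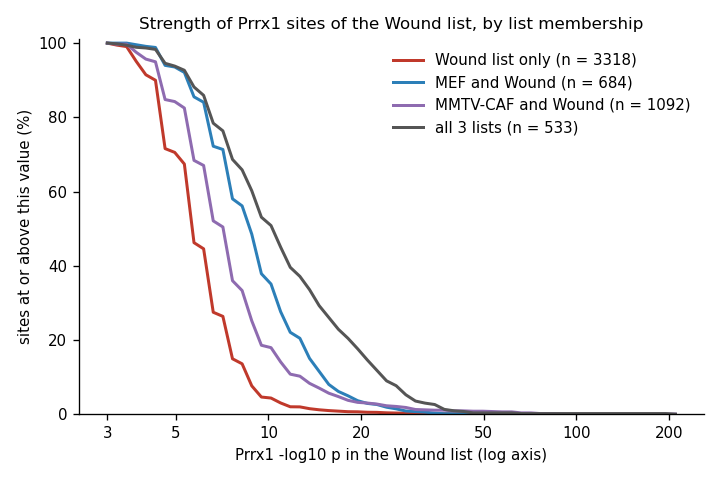
Percent of Prrx1 sites of the Wound list (y axis) at or above a given −log10 p in that list (x axis, log scale), with 1 line for each list membership. The wound-only line lies lowest over most of the range, with 4.52% of its 3318 sites at or above 10, and the line for sites in all 3 lists lies highest.

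At the edge of the rule, 27 Wound sites had the nearest summit of another list in the last 100 bp inside the limit of 500 bp and were not wound-only, with a median −log10 p of 5.39 (3.43–11.5). Of 29 sites with that summit in the first 100 bp beyond the limit, 28 were wound-only, and the median of the 29 was 5.39 (3.79–9.36). Within 10 kb, 230 wound-only sites (6.93%) had a MEF summit and 649 (19.6%) an MMTV-CAF summit. At 2573 wound-only sites the nearest Prrx1 summit of another list lay farther than 10 kb. The rule itself used the distance to these summits, so the values are a description.

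TAATTA followed Prrx1 strength within the wound-only sites. From the lowest to the top quartile of −log10 p the share with the word was 25.5%, 28.2%, 38.8% and 48.2%, and the share with a run was 4.34%, 6.39%, 13.5% and 28.1%. In the top 5%, 54.8% held the word and 43.4% a run. The promoter share was 24.8%, 30.4%, 24.6% and 22.4% in the same order and 14.5% in the top 5%.

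Other words were searched as exact letters on both strands and are given with their background. GGGCGG, the GC box of many promoters, was found at 44.2% of wound-only promoter sites, against 38.7% of all protein-coding starts, and at 5.02% of distal sites. TGANTCA, the AP-1 word, was found at 13.8% of distal wound-only sites and 6.44% of their flanks. It was less frequent at wound-only sites (11.2%) than at the other Wound sites (15.6%, difference −4.38 points, −6.23 to −2.57). GGAATG, the core of the TEAD word, stood at 11.2% of distal sites and 11.4% of their flanks. CCGGAA, the ETS word, stood at 15.1% of promoter sites and 14.1% of all starts. Of these 5 words, TAATTA had the largest ratio of its share at distal sites to that in their flanks, followed by TGANTCA. The other 5 words searched (the CCAAT box, the E-box CACGTG, a second E-box form CAGCTG, the Runx word TGTGGT and the Smad word CAGACA) were found at 2.27% to 29.1% of distal sites and at 2.45% to 25.4% of their flanks.

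Most wound-only sites lay away from promoters. Of the 3318 sites, 848 (25.6%, 24.1–27.1) were within 1 kb of a protein-coding start, 1178 (35.5%) lay in introns, 1244 (37.5%) between genes, 25 in coding exons and 23 in UTRs. The promoter share was 17.1% among the other Wound sites, made up of 29.2% for sites shared with MMTV-CAF, 10.1% for sites in all 3 lists and 3.22% for sites shared with MEF. Within promoters, 269 of 848 summits (31.7%) were within 100 bp of the start. The median distance to the nearest start over all wound-only sites was 13356.5 bp. Median GC content within 100 bp was 61.2% at promoter and 41.3% at distal sites.

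A wound-only site was called marked by H3K27ac when a summit of that list lay within 500 bp, and by H3K4me3 when a region of that list overlapped its window of 250 bp to either side. In WT Wound cells 1128 wound-only sites (34.0%, 32.4–35.6) had H3K27ac and 1202 (36.2%, 34.6–37.9) had H3K4me3. H3K27ac was present at 37.6% of the same sites in WT MEF and 35.1% in WT MMTV-CAF, and H3K4me3 at 36.3% and 46.1%. In the cells with altered Prrx1, H3K27ac was present at 34.3% in SG Wound cells, 38.7% in SG MMTV-CAF, 34.1% in SG MEF and 27.4% in KI MEF. H3K4me3 was present in the same order at 39.1%, 48.9%, 34.7% and 30.3%. The lists differed in length, from 29325 to 61603 H3K27ac summits and from 13125 to 29166 H3K4me3 regions. With all lists of a mark cut to the length of the shortest, the WT shares were 32.5% in Wound, 32.4% in MEF and 29.1% in MMTV-CAF for H3K27ac and 33.4%, 34% and 36.9% for H3K4me3, and the SG shares were 30.3%, 30.2% and 30.6% for H3K27ac and 35%, 33.8% and 37% for H3K4me3. At equal length the cell types thus lay closer together for H3K4me3 and for H3K27ac in SG, and about as far apart for H3K27ac in WT.

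Promoter and distal sites differed widely. In WT Wound cells H3K27ac was present at 73.5% of promoter and 20.4% of distal wound-only sites, and H3K4me3 at 95.8% and 15.8%. Over the 7 lists of each mark, promoter sites ranged from 59.2% to 75.6% for H3K27ac and from 88.3% to 96.7% for H3K4me3, with MEF KI lowest for both. Distal sites ranged from 16.5% to 27.9% and from 10.3% to 32.7%.

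**Figure D3:**
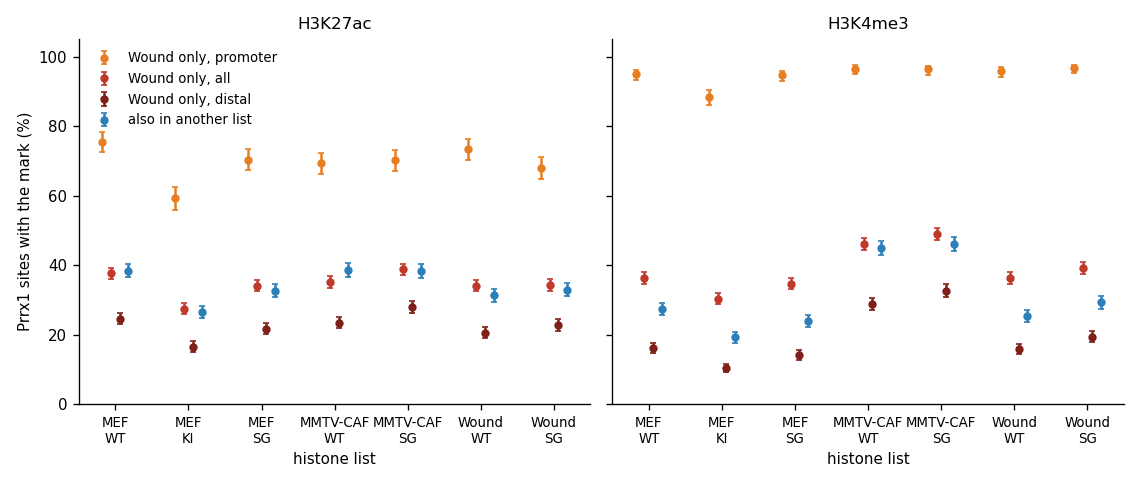
Percent of Prrx1 sites with H3K27ac (left) or H3K4me3 (right) in each of the 7 lists of that mark, for wound-only sites, their promoter and distal parts, and Wound sites also present in another Prrx1 list; bars are 95% intervals. Promoter sites lie at 59.2% or higher for H3K27ac and 88.3% or higher for H3K4me3 in these lists, and distal sites at 32.7% or lower.

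Compared with the other Wound Prrx1 sites, wound-only sites carried H3K27ac in WT Wound cells slightly more often (34.0% against 31.3%, difference 2.73 points, 0.232–5.20) and H3K4me3 more often (difference 10.9 points, 8.46–13.3). The sites were not alike in position. Among promoter sites the H3K27ac difference was 4.35 points (−0.976 to 9.87) and among distal sites −3.01 points (−5.50 to −0.548), so the sign turned with position. For H3K4me3 both were positive (7.40 and 3.46 points). Among the 150 wound-only sites with a −log10 p of at least 10 the H3K27ac difference to other Wound sites of that strength was 0.299 points and the H3K4me3 difference −2.57 points. Sites shared with MMTV-CAF carried H3K27ac more often than wound-only sites (difference −15.9 points, −19.3 to −12.5) and sites shared with MEF less often (difference 30.2 points, 27.9–32.2).

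Across the 14 histone lists, 1198 wound-only sites (36.1%) were marked in none, as were 36.3% of the other Wound Prrx1 sites. H3K27ac was absent from all 7 lists at 1404 sites (42.3%) and present in all 7 at 415 (12.5%), against 41.2% and 10.5% of the other Wound sites. Those other sites were not uniform. H3K27ac was absent from all 7 lists at 85.4% of sites shared with MEF, 16.8% shared with MMTV-CAF and 34.5% in all 3 lists. H3K27ac in a Wound list and in no MEF or MMTV-CAF list was seen at 117 sites (3.53%, 2.95–4.21) and at 2.17% (1.65–2.84) of the other Wound sites. The opposite, H3K27ac in a MEF or MMTV-CAF list and in no Wound list, was seen at 489 sites (14.7%) and at 17.5% of the other Wound sites. Of the 1128 sites with H3K27ac in WT Wound cells, 912 (80.9%) also had it in WT MEF and 838 (74.3%) in WT MMTV-CAF. Over all WT Wound H3K27ac summits those shares were 69.6% and 67.7%.

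Sites with runs of TAATTA stood outside the marked chromatin. Of the 434 sites with a run, 398 (91.7%, 88.7–93.9) were marked in none of the 14 lists and 7 (1.61%) had H3K27ac in WT Wound cells. Sites with the word and no run had H3K27ac in 19.1%, and sites without the word in 45.6%. The order was the same among distal sites, at 0.939%, 14.2% and 29.2%. In the top quartile of Prrx1 −log10 p 31.7% had H3K27ac and 31% H3K4me3, against 36.3% and 38.1% in the lowest quartile.

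Marks at wound-only sites were compared between WT and SG Wound cells. With 1 list of each, a change after deletion of Prrx1 cannot be told apart from a difference between libraries. Of the 1128 wound-only sites with H3K27ac in WT Wound cells, 840 (74.5%, 71.8–76.9) also had it in SG and 288 (25.5%) did not. The background was 32.3% lost among all WT Wound H3K27ac summits and 26.9% among the other Wound Prrx1 sites. In the other direction, 297 of 2190 unmarked sites (13.6%, 12.2–15.1) had H3K27ac in SG, against 14.6% of the other unmarked Wound Prrx1 sites. Taken over the sites marked in SG, 26.1% (297 of 1137) were unmarked in WT, against 30.4% of the other Wound Prrx1 sites, and 48.4% of all SG H3K27ac summits had no WT summit. Against all other Wound Prrx1 sites, the difference was 1.34 points for keeping (−2.73 to 5.49) and −0.994 points for gaining (−3.27 to 1.23). The gained share of those sites was not uniform: it was 4.41% for sites shared with MEF, 23.4% for sites shared with MMTV-CAF and 19.4% for sites in all 3 lists, and wound-only sites differed from them by 9.15 (6.85–11.2), −9.84 (−13.8 to −6.16) and −5.81 points (−10.3 to −1.86).

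Read over summits, 74.4% (940 of 1263) of WT Wound H3K27ac summits at wound-only sites had an SG summit within 500 bp, against 67.4% of the 31369 with no Wound Prrx1 summit within 500 bp (difference 7.05 points, 4.52–9.44). The difference was 5.67 points (1.55–9.59) for distal and 2.83 points (−0.233 to 5.55) for promoter summits. Strong summits were kept more often in both sets. Within quartiles of WT H3K27ac −log10 p the difference was 5.10, 1.93, 4.95 (0.0416–9.19) and, in the top quartile, −2.59 points (−6.13 to 0.533). The intervals of 3 of the 4 quartiles included 0. The same wound-only sites, which had no Prrx1 summit in the other cell types, kept H3K27ac at 78.6% in MEF SG, 60.3% in MEF KI and 80.3% in MMTV-CAF SG, above summits away from Wound Prrx1 by 10.6, 14.4 and 16.8 points over summits. Within quartiles of WT −log10 p the MEF differences lay between −1.76 and 4.70 points for SG and between −1.99 and 3.07 points for KI, and all 8 intervals included 0. Split also by position, the interval excluded 0 for SG promoter summits in the second quartile (10.9 points, 0.200–17.7). It also did for KI distal summits in the top quartile (9.07 points, 3.27–13.5), and the other MEF intervals included 0. For MMTV-CAF SG, with promoter and distal summits together, the difference went from 15.9 points (6.59–24.8) in the lowest quartile to −0.115 points (−2.91 to 2.26) in the top quartile.

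**Figure D4:**
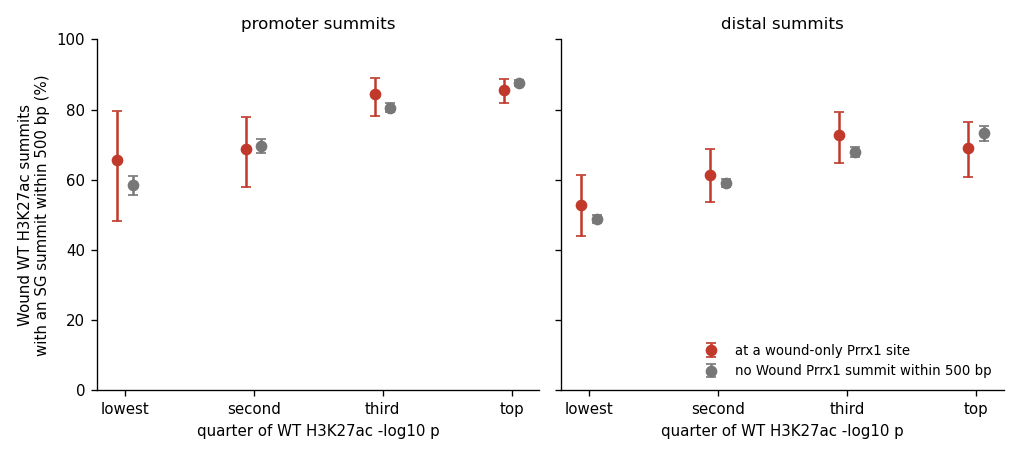
Percent of WT Wound H3K27ac summits with an SG summit within 500 bp, by quartile of WT −log10 p, for promoter (left) and distal (right) summits at wound-only Prrx1 sites and with no Wound Prrx1 summit within 500 bp; bars are 95% intervals. The share kept is lowest in the lowest quartile for both sets, at 52.8% for distal summits at wound-only sites, and the intervals of the sets overlap or touch in each quartile.

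Within wound-only sites, promoters kept H3K27ac more often than distal sites (80.9% against 66.5%, difference 14.4 points, 9.21–19.5). Unmarked promoter sites also gained it more often (32.4% against 11.4%). The other Wound Prrx1 sites were similar in both respects, with 83.9% kept at promoter and 66.6% at distal sites and 33.6% and 13.0% gained. Sites with TAATTA kept it at 61.2% (90 of 147, 53.2–68.7) and sites without the word at 76.5% (73.7–79.0). Among distal sites it was kept at 57.1% (52 of 91) with the word and no run, at 2 of 4 with a run and at 68.8% without the word. Sites that lost the mark had been weaker, with a median WT H3K27ac −log10 p of 18.2 against 26.5 where it was kept. Of the 288 lost sites, 153 (53.1%) had an SG summit farther than 500 and within 1000 bp, and of the 297 gained sites 122 (41.1%) had a WT summit at that distance. A change of call thus often came with a summit just beyond 500 bp.

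At sites marked in both genotypes, the median rank of the H3K27ac summit within its list went from the percentile 76.6 in WT to 83.4 in SG, and 64.2% of the 840 sites ranked higher in SG. For all retained Wound summits the percentiles were 60.8 and 72.2, and 70.3% ranked higher. H3K4me3 was kept at 1169 of 1202 sites (97.3%) and lost at 33 (2.75%), against 7.54% lost among all WT Wound regions and 5.30% at the other Wound Prrx1 sites. It was gained at 128 of 2116 unmarked sites (6.05%), against 7.02% of the other unmarked Wound Prrx1 sites. Over the sites marked in SG, 9.87% were unmarked in WT, and 23.0% of all SG regions overlapped no WT region. H3K4me3 enrichment over input at sites marked in both had medians of 7.89 and 9.08, a median log2 difference of 0.20, which was also that of all retained regions. Of the 288 sites that lost H3K27ac, 178 (61.8%) had H3K4me3 in both genotypes.

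Genes of the extracellular matrix and candidate master factors of fibroblasts held wound-only sites most often among the 10 gene lists examined. Over all 22350 protein-coding genes, 11.4% had a wound-only site in the gene or within 10 kb and 4.17% had one within 1 kb of a start. The other Wound Prrx1 sites were likewise found near 7.48% of all genes, 41.4% of the extracellular matrix and 30.4% of the master factor list. Of 29 extracellular matrix genes 14 (48.3%) had one, among them Fn1, Postn, Sparc, Thbs1, Loxl2 and the collagen genes Col1a1, Col1a2, Col4a1, Col5a2, Col6a1, Col8a1 and Col12a1. Of 23 master factor genes 10 (43.5%) did, including Runx1, Runx2, Twist2, Snai1, Zeb2, Meis1, Nfix and Prrx1 itself. The median gene length was 38.5 kb in the first list and 52.6 kb in the second, against 15.4 kb over all genes, and the part of length in these shares was not tested. Among genes with H3K4me3 over a start in WT Wound cells the shares were 17.4% and 7.47%.

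Of 22 wound cytokine and chemokine genes 7 (31.8%) had a site near them, of 21 protease and inhibitor genes 6, of 22 AP-1 and TEAD factor genes 6, of 22 growth factor and receptor genes 6 and of 16 myofibroblast contractile genes 4. TGF-beta signalling genes had one in 4 of 26, Wnt pathway genes in 3 of 24 and dermal fibroblast lineage genes in 3 of 20. The other Wound Prrx1 sites were near more genes of the growth factor (45.5%), TGF-beta (34.6%), dermal (30%) and Wnt (16.7%) lists than wound-only sites were. The AP-1 and TEAD list was reached mostly at promoters, with 5 of its 22 genes having a promoter site. Some sites were shared between neighbours: Ccl7 and Ccl11 had the same one. The wound-only sites counted for Mmp19, Tpm4, Icam1 and Cnn2 lay outside these genes, at the promoter of another gene. For Mmp19 it was the promoter site of Dnajc14.

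Leaving out chromosome 18, 84 wound-only sites lay in or near listed genes. H3K27ac was present at 38 of them in WT Wound cells and at 29 in SG, at 21 in both. Of these sites, 19 lay within 1 kb of the listed gene's own start, and all 19 had H3K4me3 in both Wound genotypes. H3K27ac was present in both genotypes at 7 of the 19, in WT alone at 7, in SG alone at 2 and in neither at 3. It was thus kept at 7 of the 14 promoter sites marked in WT and at 21 of the 38 marked sites in or near listed genes, while the share kept was 80.9% over all wound-only promoter sites and 74.5% over all wound-only sites. TAATTA was found at 3 of the 19.

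A −log10 p also grows with read depth, so its values in WT and SG are given side by side and were not tested. The promoter sites with H3K27ac in both genotypes were those of Col4a1, Csf1, Jund, Plat, Ptgs2, Snai1 and Wwtr1. At Col4a1, a basement membrane collagen, H3K27ac −log10 p was 68.9 in WT and 46.7 in SG. At Csf1, the growth factor of macrophages, it was 59.5 and 45.0. At Plat, tissue plasminogen activator, it was 22.3 and 18.9, and at Snai1, a zinc finger repressor, 14.4 and 14.2. Those 4 were lower in SG, while the other 3 were higher: Ptgs2, the inducible cyclooxygenase, went from 31 to 74.1, Wwtr1 (TAZ), a coactivator of TEAD factors, from 55.5 to 79.8 and the AP-1 factor Jund from 33.3 to 61.0. Their Prrx1 −log10 p lay between 3.64 (Ptgs2) and 9.36 (Plat).

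H3K27ac was listed in WT and not in SG at the promoter sites of Col1a2, Cyr61, Fgfr1, Junb, Meis1, Nfix and Wnt5a. At Col1a2, which encodes a chain of type I collagen, the WT −log10 p was 33.3 and the nearest SG summit lay 1027 bp away. At Junb, an AP-1 factor, it was 42.8 with the nearest SG summit at 2206 bp, and at Nfix, a nuclear factor I gene, 18.2 with 2448 bp. At Meis1, a homeobox gene, it was 19.2 with 1897 bp, and the word TAATTA was present there as well as at Wnt5a. In the other 3 the SG summit was nearer: at Cyr61, a matricellular target of YAP and TAZ, WT was 31 with an SG summit at 788 bp, at Fgfr1, a fibroblast growth factor receptor, 28.7 with 996 bp, and at Wnt5a, a Wnt ligand, 8.35 with 861 bp. H3K4me3 fold over input at Meis1 was 2.99 in WT and 6.74 in SG, and its region was 627 bp wide in WT and 14033 bp in SG.

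In the opposite direction, the promoter site of Zeb2, a repressor of epithelial genes, had an SG H3K27ac −log10 p of 56.1 with a WT summit 510 bp away, just outside the limit. That of Nrg1, a ligand of ErbB receptors, had 36.7 in SG with a WT summit at 810 bp. At Col1a1, Fosl2 and Skil no H3K27ac summit lay within 500 bp in either genotype, although Skil had summits at 918 bp in WT and 584 bp in SG, and Col1a1 at 872 and 822 bp. The Prrx1 gene held an intronic wound-only site at chr1:165210581-165211081 with a Prrx1 −log10 p of 6.32. H3K27ac was listed there in all 7 lists, with a −log10 p of 12.6 in WT and 26.7 in SG Wound cells.

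Several matrix and receptor genes held intronic sites without marks. The site in Fn1 (fibronectin) had a Prrx1 −log10 p of 9.36 and a run of 10 bases, and that in Col5a2 11.5 and a run of 18 bases. A site in Loxl2, a lysyl oxidase, reached 9.89 with a run of 10 bases, and 1 in Egfr 6.32 with a run of 14 bases. All 4 were marked in none of the 14 lists. By contrast, the site in Actn1, an actin crosslinker, had a Prrx1 −log10 p of 18.7 without the word, and H3K27ac at 29.9 in WT and none within 500 bp in SG. At Timp3, a metalloproteinase inhibitor, H3K27ac was 18.2 in WT and 42.8 in SG.

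The largest WT H3K27ac values without an SG summit within 1 kb were at Tnfrsf12a (70.3), the receptor of the cytokine TWEAK, and at Steap2 (63.7), Trim8 (59.5), Dnajc14 (51.6) and Hspg2 (50.3), which encodes perlecan. Their nearest SG summits lay between 1737 and 4757 bp away. H3K4me3 was present at all 5 in both genotypes, with folds of 8.57 and 12 at Tnfrsf12a. The largest SG values without a WT summit within 1 kb were at Flnc (80.8), a filamin of muscle, near Gm10800 (57.9), at Mbnl1 (54.4), a splicing factor, and near Gm5614 and Grb14 (both 43.1). These sites were picked for this difference, so the values are a description.

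The highest Prrx1 values among wound-only sites lay largely in repeated sequence. Of the 10 highest, 7 were in windows where at least 50% of the 32-base words occur elsewhere in mm9, a property of 60 wound-only sites (1.81%) and of 2.12% of the other Wound sites. These were at or near Gm10801 (49.5), Gm10800 (43.1 and 30.3), Gm10718 (43.1), Gm11168 (40.4), 1700012B15Rik (30.9) and Amph (28). The remaining 3 were near Gm5614 (47.3), 3110052M02Rik (31.8) and Sprr2e. At 8 of the 10 an H3K27ac summit was listed in SG Wound cells and not in WT, against 13.6% of all unmarked wound-only sites. Reads from such sequence can map to several places, and the part of mapping in these values was not tested.

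Wound-only sites were unevenly spread over chromosomes. Chromosome 8 held 571 of them (4.33 per Mb) and chromosome 2 held 485 (2.67 per Mb), while the others ranged from 0.138 per Mb on X to 1.71 on chromosome 11. Together the 2 chromosomes held 31.8% of the sites. H3K27ac summits were not as uneven, with 16.4 per Mb on chromosome 8, 14.7 on chromosome 2 and 13.0 on chromosome 7 in WT Wound cells. The share of those summits with a Wound Prrx1 summit was 16.1% on chromosome 8, 9.58% on chromosome 2 and 2.22% on chromosome 7. The other Wound Prrx1 sites were likewise densest on chromosome 8 (1.91 per Mb) and chromosome 2 (1.39 per Mb). On the remaining chromosomes they ranged from 0.150 per Mb on X to 1.33 on chromosome 15. Chromosome 8 was also high in the MEF-only sites (1.92 per Mb), and the MMTV-CAF-only sites were densest on chromosome 15 (6.00 per Mb).

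**Figure D5:**
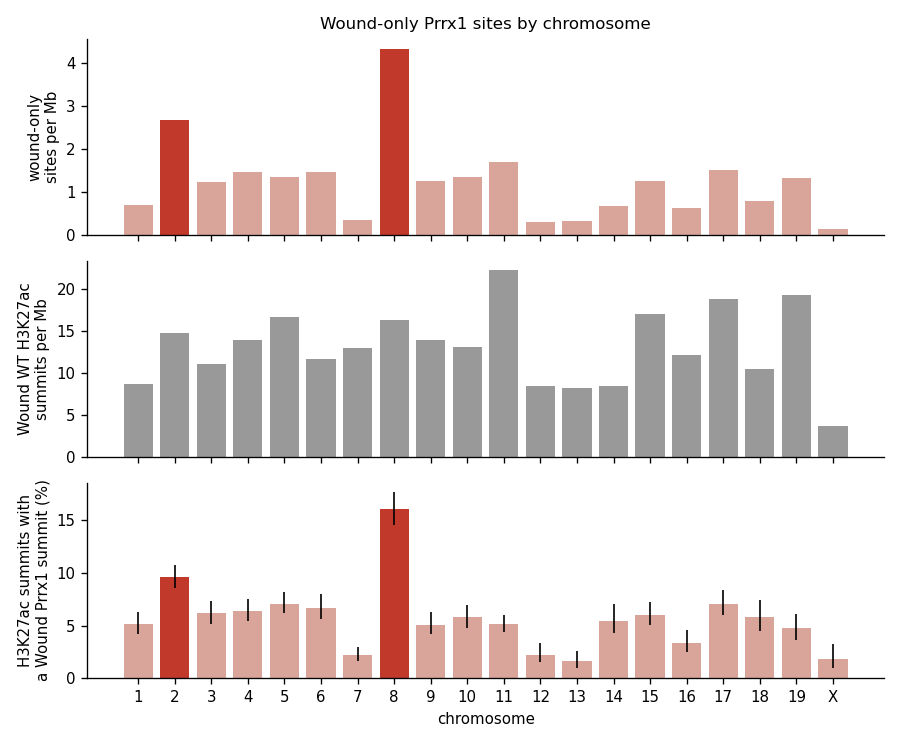
Wound-only Prrx1 sites per Mb (top), WT Wound H3K27ac summits per Mb (middle) and percent of those H3K27ac summits with a Wound Prrx1 summit within 500 bp (bottom, 95% intervals), by chromosome. Chromosomes 8 and 2, drawn darker, are highest in the top and bottom panels but not in the middle panel.

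Sites on chromosomes 2 and 8 resembled the remaining sites in position and marks but held the word less often. The promoter share was 27.8% there and 24.5% on the other chromosomes, H3K27ac in WT Wound cells 35.8% and 33.2%, and H3K27ac kept in SG 75.4% and 74.0%. TAATTA was present at 28.8% and 38.2%. Among genes with the most wound-only sites, Gm20388, a locus annotated over 4434.88 kb of chromosome 8, had 49, and Nrg1, Pard3, a cell polarity gene, and Tmco7, all on chromosome 8, had 7 each, as did Fmn1, a formin, on chromosome 2. The promoter sites of listed genes were affected as well, with 9 of the 19 on these chromosomes. Densities are per Mb of the mm9 reference and were not scaled to input, and the cause of the excess was not tested.

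The lists showed marks of fibroblasts in all 3 cell types. Of 12 fibroblast markers, 7 had H3K4me3 over a start and 8 H3K27ac within 1 kb of a start in WT Wound cells, against 11 and 10 in MEF and 9 and 8 in MMTV-CAF. Dcn had neither mark in WT Wound cells. Of 10 keratinocyte or epithelial markers 1 had H3K4me3 (Cdh1) and 0 had H3K27ac there, of 9 immune markers 1 had each (Cd14) and of 7 endothelial markers 1 (Kdr). Read depth is unknown, since the lists give no counts, and list length and −log10 p depend on it.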

How the data were processed

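ChIP-seq peak lists of Prrx1, H3K27ac and H3K4me3 from mouse fibroblasts were used as deposited, 1 list for each of 17 libraries. MACS2 was run by the authors, with input as the control, on Bowtie alignments (mm9) of Trimmomatic-trimmed reads from which Picard had taken out duplicates. IgG was also named as the normal control of the Prrx1 ChIP, and how it entered the lists is not given in the sources used here. Per the file headers and columns, Prrx1 and H3K27ac lists give a 1-bp summit with its deposited −log10 p. The H3K4me3 lists hold broad regions with the authors' fold over input (ratio), −log10 p and −log10 q, and a deposited score of 10 times the −log10 q. The Prrx1 ChIP was described as done in duplicate, but whether its lists pool the duplicates is not given in the sources used here, and its lists reach a −log10 p of 3.00 although a cutoff of 5 was stated for sharp peaks.

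Sites were built with Python 3.11.15, numpy 2.4.6 and pandas 2.3.3, and figures with matplotlib 3.10.9. Genes and sequence came from mm9 (NCBIM37, GENCODE annotation). A mark within 500 bp (H3K27ac) or overlapping 250 bp to either side (H3K4me3) of the strongest Wound summit was called present. Promoters were within 1 kb of a protein-coding start. Shares carry Wilson and differences Newcombe 95% intervals, and the scripts were tested on simulated data. No p-value was computed because each group had 1 library, whose depth is unknown. The sites named were the 10 with the highest Prrx1 −log10 p, the 5 highest at promoters, the 5 highest by H3K27ac in WT alone and in SG alone, the 5 genes with the most sites and the listed genes with a promoter site. Fbn1, Gzmk, AI593442, Csrp1, Col5a2, Pop5, Lrrc32 and the intronic sites of listed genes were added after their values were seen. The members, gene lists and tests were chosen with earlier results of these data known. Sites on chromosome 18 were counted but are not named.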

Additional observations from a re-analysis of the deposited data

Results flagged for a closer look

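The share of wound-only sites with H3K27ac or H3K4me3 moved in opposite directions after alteration of Prrx1 in different cell types, which was noted from the signs alone, and the difference was not tested. For H3K27ac, MEF KI minus WT was −10.2 points and MEF SG minus WT −3.53 points, while MMTV-CAF SG minus WT was 3.62 points and Wound SG minus WT 0.271 points. For H3K4me3 the corresponding values were −6.00, −1.57, 2.83 and 2.86 points. The signs were those of the change in list length: H3K27ac lists held 44918 summits in WT MEF, against 29325 in KI and 43019 in SG. MMTV-CAF lists held 53873 (WT) and 61603 (SG) summits, and Wound lists 33465 (WT) and 43058 (SG). For H3K4me3 the MEF lists held 16089 (WT), 13125 (KI) and 14668 (SG) regions. There were 27339 (WT) and 29166 (SG) regions for MMTV-CAF, and 16961 (WT) and 19641 (SG) for Wound cells. With all lists of a mark cut to the length of the shortest, the H3K27ac share was 32.4% (WT), 27.4% (KI) and 30.2% (SG) in MEF, 29.1% (WT) and 30.6% (SG) in MMTV-CAF, and 32.5% (WT) and 30.3% (SG) in Wound cells, so the small increase in Wound cells turned to a decrease. The H3K4me3 share was then 34% (WT), 30.3% (KI) and 33.8% (SG) in MEF, 36.9% (WT) and 37% (SG) in MMTV-CAF, and 33.4% (WT) and 35% (SG) in Wound cells. For H3K4me3 the SG and WT shares in MEF and in MMTV-CAF were then nearly equal.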

How the results depend on the processing

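Of 94 values recomputed for the comparisons, 52 stayed within their 95% interval or within 1.5 times the main count, 41 moved and 1 changed sign. Of the values recomputed for the shares marked in the other 12 histone lists, 40 stayed and 50 moved. The number of wound-only sites was 281 with all Prrx1 lists at a −log10 p of at least 10 and 1591 with lists of equal length. The promoter share was 19.6% within 500 bp, 33.2% within 2.5 kb and 28.6% with starts of every gene type. At a Wound Prrx1 −log10 p of at least 10 the promoter share was 14%, H3K27ac in WT Wound cells 25.3%, H3K4me3 16.0%, TAATTA 54.7%, the H3K27ac difference to the other Wound sites 0.299 points, and the H3K4me3 difference to the other Wound sites turned to −2.57 points. TAATTA was 38.9% at a −log10 p of at least 5, 24.5% within 50 bp and 42.8% within 4 times that distance. For H3K27ac within 250 bp or 1000 bp, the share marked was 17.8% or 45.1% and the share kept in SG 57.4% or 86.2%, and within 250 bp 7.78% gained it. For H3K4me3 within 1000 bp, 39.3% were marked and 7.30% gained it. With histone lists at a −log10 p of at least 10, 30.4% had H3K27ac and 31.3% H3K4me3, and 3.47% gained H3K4me3. With lists of equal length 33.4% had H3K4me3, and 11.0% gained H3K27ac and 4.54% H3K4me3. Promoter and distal sites kept H3K27ac at 80.9% and 66.5% and gained it at 32.4% and 11.4%, kept H3K4me3 at 99.1% and 93.3%, and held TAATTA in 11.9% and 43.2%. Promoter sites gained H3K4me3 at 41.7%. By quartile of WT −log10 p, H3K27ac was kept at 55.9%, 63.5% and, in the top quartile, 81.7%, and H3K4me3 at 78.1% in the lowest, 99.7% in the next to top and 99.2% in the top quartile. Without chromosomes 2 and 8, an alternative chosen after seeing the data, TAATTA was 38.2%. The cause of these moves was not tested, other than the wider or narrower windows themselves.

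No paired analysis was possible because each group had 1 library and the samples carry no replicate numbers, and for the same reason no library was left out. A window of 250 bp was the main setting for H3K4me3 and had no separate alternative. Read depth is unknown, since lists give no counts, so its effect on weak sites was not tested.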

Other observations

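Of the 60 wound-only sites in repeated sequence, 7 had H3K27ac in WT Wound cells and 18 in SG, and 5 had H3K4me3 in WT and 15 in SG. Over all wound-only sites the shares were 34.0% (WT) and 34.3% (SG) for H3K27ac and 36.2% (WT) and 39.1% (SG) for H3K4me3, and the SG lists were longer (43058 against 33465 H3K27ac summits and 19641 against 16961 H3K4me3 regions). The cause was not tested.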
